A study of Mus musculus with 6 samples.

Results

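Fibroblasts of the pressure-overloaded left ventricle were followed through 10 marker genes. Of these, 6 mark the resting fibroblast (Tcf21, Pdgfra, Ddr2, Thy1, Dpt and Gsn) and 4 mark its activation (Cthrc1, Meox1, Fap and Cilp). They were taken by gene name from a table of raw read counts for 54532 genes, in which every one of the 10 occurred, and all 10 were among the 14774 genes that held enough reads to be tested. The libraries came from left ventricular tissue of 3 transgenic (TG) mice, labelled HINT2CTG-Myh6Cre, and 3 non-transgenic (NTG) mice, labelled C57BL/6J. All 6 hearts had undergone aortic banding (AB), a surgical narrowing of the aorta that loads the left ventricle with pressure, 4 weeks before sampling, and no sham-operated library was analysed here. The mice were males of 8 to 10 weeks at surgery. TG mice carried human HINT2 under the CAG promoter, switched on with tamoxifen by a Cre recombinase that the Myh6 promoter confines to cardiomyocytes. Hence the transgene was not aimed at fibroblasts, and whether NTG mice carried Cre or received tamoxifen is not given in the sources used here. One library was made per heart. The p-values below compare the difference between TG and NTG with the spread between these libraries.

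Cardiac fibroblasts keep up the collagen scaffold of the heart. Tcf21 is a transcription factor of the fibroblast lineage, Pdgfra a receptor for platelet-derived growth factors, Ddr2 a receptor that binds collagen, Thy1 a glycoprotein anchored at the cell surface, Dpt (dermatopontin) a matrix protein that binds collagen fibrils, and Gsn (gelsolin) a protein that severs actin filaments. Under pressure overload part of the cells become activated and lay down matrix: Cthrc1 is a secreted protein of such matrix-producing cells, Meox1 a homeobox transcription factor, Fap a protease of the cell surface, and Cilp a secreted matrix protein known to bind transforming growth factor beta.

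The libraries held 14863568 to 17581220 counts. Levels are given in CPM, the counts of a gene per library total after scaling of the total by the trimmed mean of M-values (TMM), and fold changes as log2 of TG over NTG, so that negative values are lower in TG. The targeted gene, Hint2, had 793, 828 and 859 counts in the TG libraries and 545 and 559 in NTG 2 and NTG 3, but only 12 in the library labelled NTG 1. Its log2 fold change was 1.33 with all libraries (edgeR adjusted p = 0.433) and 0.77 without the library labelled NTG 1 (edgeR adjusted p = 0.0212). The counts are those of the mouse gene, and how reads of the human transgene were assigned is not given in the sources used here. Over all genes the library labelled NTG 1 was nearer to the 3 TG libraries (chi-square per gene 17.8 to 28.1) than to NTG 3 (33.1) or NTG 2 (71.2). TG 2 was also nearer to the library labelled NTG 1 (17.8) and NTG 3 (28.5) than to TG 1 (32.0) or TG 3 (36.8). The library labelled NTG 1 goes against the others of its label in Hint2 too, and values without it are given beside the main results. A gene was called when its adjusted p (Benjamini-Hochberg, over all genes tested) was below 0.05 and its log2 fold change was beyond 0.5 in either direction.

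The fibroblast genes differed from each other in how far TG and NTG lay apart. Cthrc1 and Cilp were far lower in TG hearts, by 20.3 and 4.23 times in the means, whereas the resting markers lay between 1.31 times lower and 1.18 times higher. By edgeR's quasi-likelihood test 0 of the 10 members were called lower or higher, against 0% of all genes lower and 0% higher, and the smallest adjusted p it gave to any gene was 0.196. DESeq2, the tool that the study used, called 2 of 10 members lower, Cthrc1 and Cilp, against 2.4% of all genes, and 0 higher, against 1.54%.

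Cthrc1 (ENSMUSG00000054196; chromosome 15, 39076932 to 39087121, GRCm38, plus strand) had 231, 971 and 159 counts in the library labelled NTG 1, NTG 2 and NTG 3. In TG 1, TG 2 and TG 3 it had 26, 31 and 2 counts, and the 2 counts carry an exact 95% Poisson interval of 0.242 to 7.22, which covers counting error only. On the CPM scale the NTG hearts held 15.8, 51.6 and 9.20 and the TG hearts 1.88, 1.76 and 0.123. The groups did not overlap, and the lowest NTG heart stood well above the highest TG heart. The means were 25.5 ± 22.8 CPM (SD, n = 3) in NTG and 1.25 ± 0.980 CPM (SD, n = 3) in TG, so that the spread among NTG hearts was nearly as large as their mean. Its log2 fold change was -4.36 ± 0.918 (SE), with a 95% interval of -6.55 to -2.16. The edgeR adjusted p was 0.196 and the DESeq2 adjusted p 0.00923, with a range of 1.85e-06 to 0.425 over the alternatives of edgeR, DESeq2 and limma. The DESeq2 call was lost without NTG 2 (adjusted p = 0.202) and without TG 1 (adjusted p = 0.0538). Leaving out NTG 2, the highest heart, gave a log2 fold change of -3.32 (edgeR adjusted p = 0.409), the smallest of the 6 values obtained by leaving out each library in turn.

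Cilp (ENSMUSG00000042254; chromosome 9, 65265180 to 65280605, plus strand) was more abundant by far. Its levels were 553, 977 and 818 CPM in the library labelled NTG 1, NTG 2 and NTG 3, against 149.9, 310.2 and 94.3 CPM in TG 1, TG 2 and TG 3. Again the groups did not overlap, and TG 2 was the highest TG heart. The means were 783 ± 214 CPM (SD, n = 3) in NTG and 185 ± 112 CPM (SD, n = 3) in TG. Its log2 fold change was -2.08 ± 0.454 (SE), with a 95% interval of -3.16 to -1.0. The edgeR adjusted p was 0.196 and the DESeq2 adjusted p 0.0102, with a range of 9.84e-17 to 0.447 over the alternatives of edgeR, DESeq2 and limma. Cilp was no longer called by DESeq2 without NTG 2 (adjusted p = 0.211), without NTG 3 (adjusted p = 0.150) and without TG 1 (adjusted p = 0.114). The log2 fold change stayed between -2.68 and -1.77 when single libraries were left out.

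The other 2 activation markers did not separate the groups. Meox1 (ENSMUSG00000001493; chromosome 11, 101877510 to 101894374, minus strand) stood at 143, 181 and 149.6 CPM in NTG and at 91.5, 171 and 68.5 CPM in TG. TG 2 lay within the NTG range while TG 1 and TG 3 lay below it. The log2 fold change was -0.52 ± 0.320 (SE), with a 95% interval of -1.28 to 0.24 and an edgeR adjusted p of 0.412. It moved to -0.98 without TG 2 (edgeR adjusted p = 0.126) and to -0.27 without TG 3 (edgeR adjusted p = 0.673), and DESeq2 called Meox1 lower without TG 2 (adjusted p = 0.000132), where it called 3.23% of all genes lower and 1.94% higher. Fap (ENSMUSG00000000392; chromosome 2, 62500943 to 62574075, minus strand) was the scarcest activation marker in NTG hearts, with 9.83, 10.8 and 5.67 CPM. TG hearts held 8.08, 7.39 and 6.42 CPM of Fap, all inside the NTG range. Its log2 fold change was -0.27 ± 0.250 (SE), with a 95% interval of -0.84 to 0.31 and an edgeR adjusted p of 0.579. The Fap value moved to -0.50 without NTG 3 (edgeR unadjusted p = 0.0296, adjusted p = 0.395) and to -0.08 without NTG 2 (edgeR adjusted p = 0.928).

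**Figure D1:**
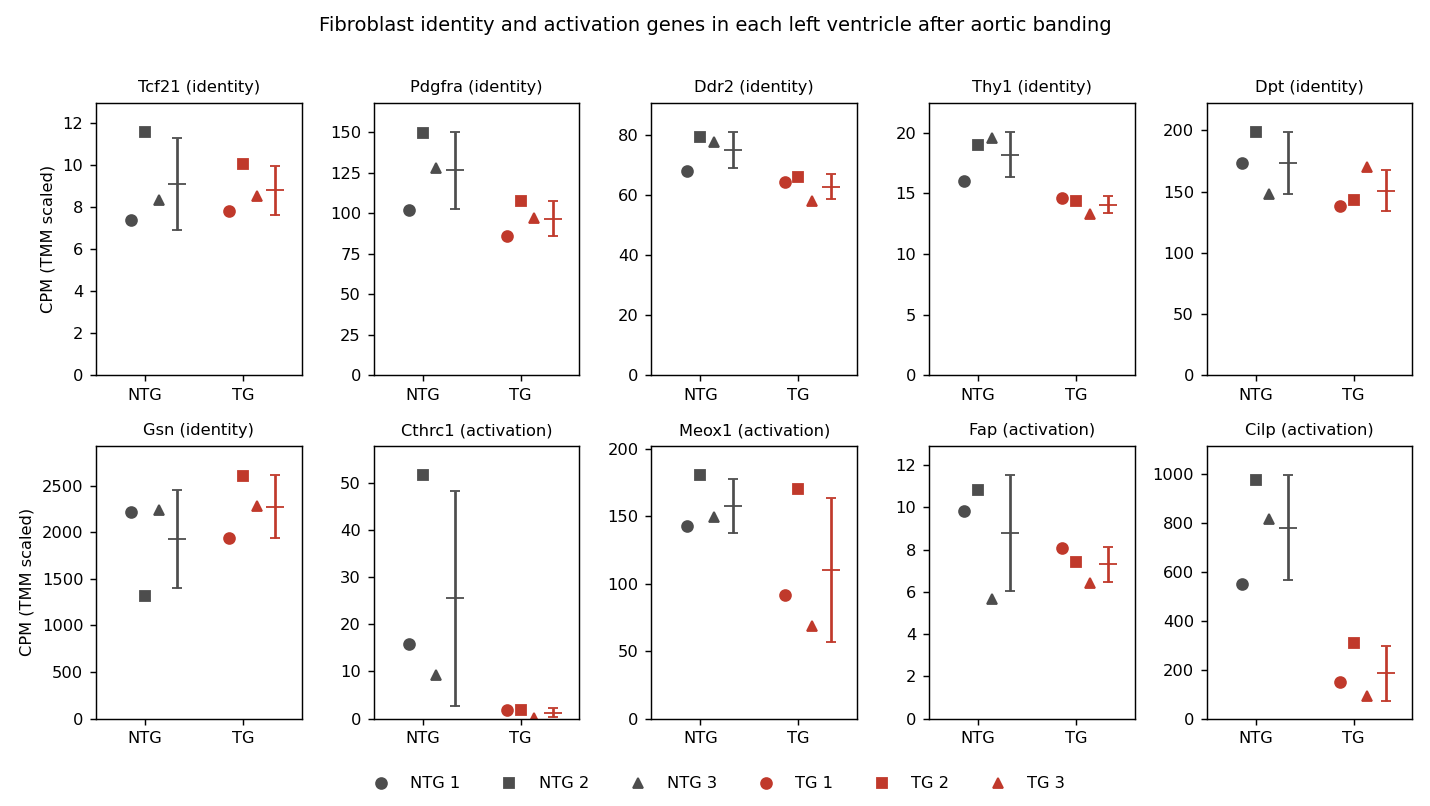
Level of each of the 10 fibroblast genes in CPM (TMM scaled; linear axes from 0, a separate scale per gene) in the 3 NTG hearts (grey) and 3 TG hearts (red), with symbols for the replicate number and bars for the mean ± SD. Cthrc1 and Cilp have no overlap between the groups, TG 2 lies within the NTG range for Meox1, and the highest Gsn level is that of TG 2.

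Among the resting markers, the 3 receptors and surface proteins had the lower TG values with the smallest p. Thy1 (ENSMUSG00000032011; chromosome 9, 44043384 to 44048579, plus strand) was at 16.0, 19.0 and 19.6 CPM in NTG and at 14.6, 14.3 and 13.3 CPM in TG. Every TG heart was below every NTG heart, the lowest of which was the library labelled NTG 1. Its log2 fold change was -0.37 ± 0.124 (SE), with a 95% interval of -0.66 to -0.09 (edgeR unadjusted p = 0.0164, adjusted p = 0.211). Ddr2 (ENSMUSG00000026674; chromosome 1, 169972307 to 170110762, minus strand) gave 67.9, 79.2 and 77.5 CPM in NTG and 64.2, 65.8 and 57.9 CPM in TG. These groups did not overlap either, though the library labelled NTG 1 lay close to TG 2. The Ddr2 log2 fold change was -0.26 ± 0.0982 (SE), with a 95% interval of -0.48 to -0.03 (edgeR unadjusted p = 0.0299, adjusted p = 0.229). Pdgfra (ENSMUSG00000029231; chromosome 5, 75152292 to 75198215, plus strand) reached 102, 149.6 and 128 CPM in NTG and 85.8, 107 and 97.04 CPM in TG. TG 2 exceeded the library labelled NTG 1, which was the only overlap. The Pdgfra log2 fold change was -0.39 ± 0.152 (SE), with a 95% interval of -0.74 to -0.04 (edgeR unadjusted p = 0.0340, adjusted p = 0.232). Exons of Pdgfra overlap those of Gm42802, Gm42803 and Mir7025, and exons of Ddr2 those of 3110045C21Rik, but no library had more than 8 counts for any of these.

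The remaining resting markers showed groups that overlapped. Dpt (ENSMUSG00000026574; chromosome 1, 164796644 to 164824266, plus strand) was at 173, 199 and 148 CPM in NTG and at 138, 143 and 169.6 CPM in TG. TG 3 exceeded NTG 3, and the log2 fold change was -0.20 ± 0.136 (SE), with a 95% interval of -0.52 to 0.11 and an edgeR adjusted p of 0.435. For Dpt it moved to -0.31 without NTG 3 (edgeR adjusted p = 0.418) and to -0.095 without NTG 2 (edgeR adjusted p = 0.811). Tcf21 (ENSMUSG00000045680; chromosome 10, 22817281 to 22820174, minus strand) was scarce, at 7.37, 11.6 and 8.33 CPM in NTG and 7.79, 10.1 and 8.52 CPM in TG. All TG values lay within the NTG range, and the log2 fold change was -0.05 ± 0.205 (SE), with a 95% interval of -0.52 to 0.42 and an edgeR adjusted p of 0.913. Its sign turned to 0.16 without NTG 2 and to 0.02 without TG 1 (edgeR). Gsn (ENSMUSG00000026879; chromosome 2, 35256380 to 35307892, plus strand) was the 1 member with a higher TG mean, at 2219, 1316 and 2234 CPM in NTG and 1933, 2605 and 2282 CPM in TG. NTG 2 had the lowest Gsn level of all hearts. The Gsn log2 fold change was 0.24 ± 0.233 (SE), with a 95% interval of -0.30 to 0.78 and an edgeR adjusted p of 0.593, and it was 0.03 without NTG 2 (edgeR adjusted p = 0.961). Gelsolin is made by several cell types of the heart, and Thy1 is also found on T cells and neurons.

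**Figure D2:**
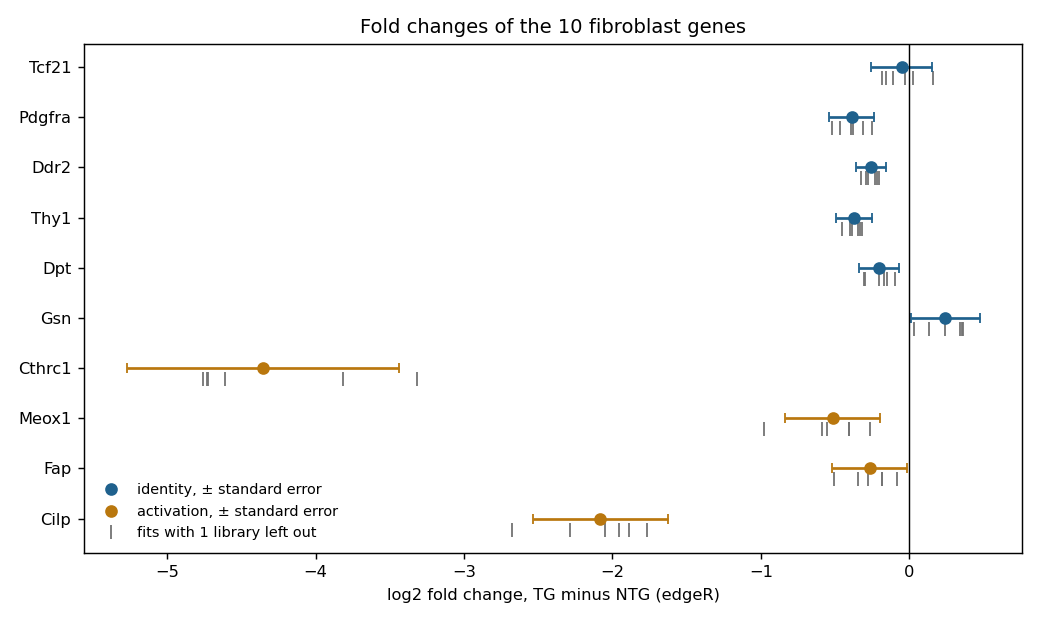
Log2 fold change of TG over NTG for each of the 10 fibroblast genes, with bars for ± SE from edgeR's quasi-likelihood fit. Grey ticks mark the values from the edgeR fits with 1 library left out. Of the ± SE bars, only that of Tcf21 includes 0. The 95% intervals given in the text are wider than these bars. They lie below 0 for Cthrc1, Cilp, Thy1, Ddr2 and Pdgfra and include 0 for the other 5 genes.

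Taking one gene at a time, 5 of the 10 members had an unadjusted p below 0.05, all of them lower in TG: Thy1, Ddr2 and Pdgfra among the resting markers and Cthrc1 and Cilp among the activation markers. Over all genes tested, 9.76% were lower and 8.83% higher at that level. This count depended on single libraries (edgeR). It was 6 of 10 without TG 2 (with Meox1 added), where 2909 of 15062 genes passed in either direction, and 5 without the library labelled NTG 1, where 4081 of 15136 passed. It was 3 without NTG 2 (Thy1, Cthrc1, Cilp; 1567 of 15001 genes), 3 without TG 1 (Thy1, Cthrc1, Cilp; 1608 of 15170 genes), 3 without NTG 3 (Cthrc1, Fap, Cilp; 1848 of 15127 genes) and 2 without TG 3 (Cthrc1, Cilp; 1721 of 15049 genes). CPM values did not overlap for 4 of 10 members, all lower in TG (2 resting, 2 activation), against 12.3% of all genes lower and 11.2% higher. Exact two-sided permutation tests over the 6 hearts, whose smallest possible p is 0.1, gave 0.1 for Thy1, Ddr2, Cthrc1 and Cilp. The other exact permutation p-values were 0.2 for Pdgfra and Dpt, 0.3 for Meox1, 0.4 for Gsn and Fap, and 0.9 for Tcf21. Fold changes had a median of -0.23 (log2) among the 6 resting markers and -1.30 among the 4 activation markers, beside -0.0081 for all genes tested. The activation median lies between Cilp (-2.08) and Meox1 (-0.52). It became -0.52 when a minimum of 10 counts in every library removed Cthrc1. In bulk tissue, fewer fibroblasts and less RNA of these genes per fibroblast cannot be told apart.

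Without the library labelled NTG 1, edgeR called 2.85% of 15136 genes lower and 2.67% higher, and again 0 of the 10 members. Cthrc1 then had a log2 fold change of -4.61 (edgeR adjusted p = 0.106) and Cilp one of -2.28 (edgeR adjusted p = 0.0741). Pdgfra moved to -0.52 (edgeR adjusted p = 0.0510), Thy1 to -0.46 (edgeR adjusted p = 0.0673) and Ddr2 to -0.33 (edgeR adjusted p = 0.0835). Without NTG 2 instead, these resting markers moved the other way, Pdgfra to -0.25 (edgeR unadjusted p = 0.101, adjusted p = 0.535), Ddr2 to -0.22 (edgeR unadjusted p = 0.0765, adjusted p = 0.510) and Thy1 to -0.34 (edgeR unadjusted p = 0.0422, adjusted p = 0.474). DESeq2 called 3 of 10 members lower in the set without the library labelled NTG 1, Pdgfra, Cthrc1 and Cilp, against 5.79% of all genes, and 0 higher, against 5.92%. The values of Dpt, Tcf21, Gsn, Meox1 and Fap were -0.21, -0.18, 0.36, -0.59 and -0.18 on the log2 scale, with edgeR adjusted p-values between 0.393 and 0.717.

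Levels of different genes were compared per length, in RPKM, the CPM divided by the gene's length in kilobases. Gsn was the most abundant of the 10, with 609 ± 166 RPKM (SD, n = 3) in NTG, and made up 73.5% to 88.2% of the summed level of the resting markers. Cilp followed in NTG with 184 ± 50.4 RPKM (SD, n = 3), ahead of Dpt with 101 ± 14.7 RPKM and Meox1 with 70.8 ± 8.996 RPKM. Neighbours in this order had no overlap between the hearts, but Cthrc1 (16.0 ± 14.3 RPKM) and Pdgfra (12.6 ± 2.37 RPKM) did not differ beyond their spread. Ddr2 with 8.08 ± 0.657 RPKM and Thy1 with 6.07 ± 0.627 RPKM stood above Tcf21 with 3.87 ± 0.938 RPKM, and Fap was last with 1.55 ± 0.484 RPKM, again with no overlap between neighbours. In TG hearts the order was not the same. Dpt (87.3 ± 9.72 RPKM) ranked above Meox1 (49.5 ± 24.0 RPKM) and Cilp (43.5 ± 26.4 RPKM), which overlapped each other. Below these stood Pdgfra (9.65 ± 1.08 RPKM), Ddr2 (6.76 ± 0.449 RPKM), Thy1 (4.69 ± 0.230 RPKM) and Tcf21 (3.74 ± 0.494 RPKM), and Cthrc1 (0.787 ± 0.615 RPKM) came last, overlapping with Fap (1.29 ± 0.147 RPKM).

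The activation markers were then set against the resting markers of the same heart. With Gsn left out, the resting markers summed to 127, 150.0 and 117 RPKM in the library labelled NTG 1, NTG 2 and NTG 3 and to 104, 110.0 and 122 RPKM in TG 1, TG 2 and TG 3. Activation markers summed to 206, 345 and 266 RPKM in NTG and to 78.9, 152 and 54.1 RPKM in TG. The sums of these 5 resting markers thus overlapped and the activation sums did not. Dpt made up 73.3% to 80.4% of these resting sums. The 4 resting markers left without Gsn and Dpt summed to 26.0, 34.7 and 31.2 RPKM in NTG and to 23.7, 26.9 and 24.0 RPKM in TG, where TG 2 lay above the library labelled NTG 1. Per 100 RPKM of resting markers, Dpt included and Gsn left out, there were 163, 230.0 and 227 RPKM of activation markers in NTG and 75.9, 138 and 44.2 RPKM in TG. Cilp made up 63.2% to 72.2% of the activation sum in NTG and 41.0% to 48.0% in TG. In every TG heart Meox1 was the larger part, with 41.1, 76.6 and 30.8 RPKM against 35.3, 72.96 and 22.2 RPKM of Cilp.

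Relative to Pdgfra alone, the 4 activation markers split into the same pairs. Per 100 RPKM of Pdgfra, Cthrc1 stood at 97.1, 217 and 45.2 RPKM in NTG and at 13.8, 10.3 and 0.801 RPKM in TG, a ratio of means of 14.4 (exact permutation p = 0.1). Cilp stood at 1275, 1539 and 1506 RPKM in NTG and at 412, 681 and 229 RPKM in TG, a ratio of means of 3.27 (exact permutation p = 0.1). For neither gene did the groups overlap. Meox1 reached 630, 543 and 526 RPKM per 100 RPKM of Pdgfra in NTG and 480.2, 714 and 318 RPKM in TG, with TG 2 the highest of all hearts (exact permutation p = 0.7). Fap was at 17.0, 12.8 and 7.84 RPKM in NTG and 16.7, 12.2 and 11.7 RPKM in TG (exact permutation p = 1). The 4 tests were two-sided, and no adjusted value could pass 0.05 at this number of hearts.

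**Figure D3:**
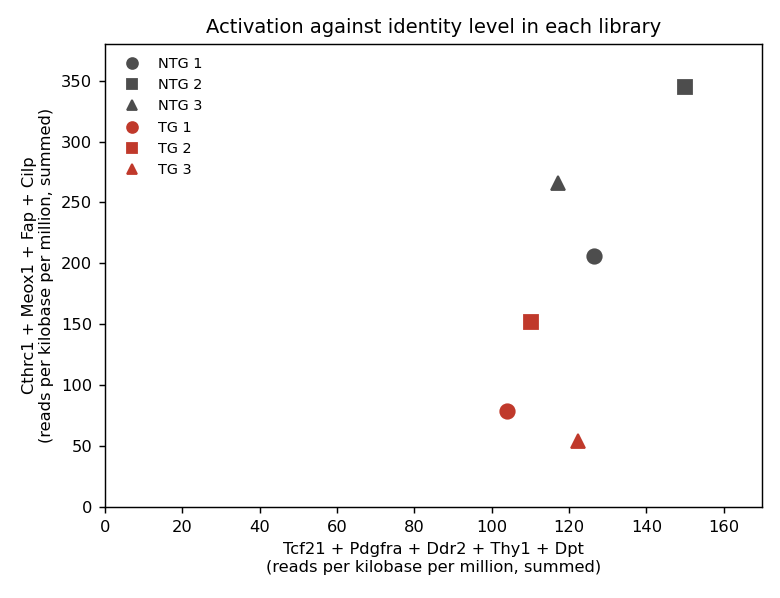
Each heart is 1 point, with the summed level of the resting markers without Gsn on the x axis and that of the 4 activation markers on the y axis, both in RPKM. The NTG hearts lie between 206 and 345 RPKM of activation markers and the TG hearts between 54.1 and 152 RPKM, while the 2 groups overlap along the x axis.

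Across the 6 hearts, which share libraries and group differences, the members did not all vary together. NTG 2 had the highest level of 8 of the 10 members (all but Gsn and Thy1), and TG 3 the lowest level of 5. The Pearson correlation of log2 CPM over the 6 hearts was 0.97 for Ddr2 and Thy1, 0.95 for Ddr2 and Cilp, 0.93 for Cthrc1 and Cilp and 0.89 for Meox1 and Cilp. Pdgfra and Cilp had a correlation of 0.84, whereas Tcf21 and Cilp had 0.36 and Fap and Cilp 0.35. Gsn was negatively correlated with each of the other 9 members, from -0.66 to -0.24. Outside the 10, the genes most like the mean profile of the activation markers among 14764 were Cerk (r = 0.99, log2 fold change -0.17), Litaf (0.99, -0.56), Kctd5 (0.98, -0.24), Zfp521 (0.98, -0.38) and Ddx50 (0.98, -0.26). Those most like the resting profile were Scpep1 (r = 0.999, log2 fold change -0.60), Rab15 (0.997, -1.45), Myof (0.99, -0.84), Kdsr (0.99, -0.49) and 1110002E22Rik (0.99, -0.45). In all, 96 genes passed 0.95 for the activation profile and 364 for the resting profile.

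The promoters of Cilp, Ddr2 and Pdgfra are shown because these genes varied together across the hearts, although Cilp marks activation and the other 2 the resting cell. For Ddr2 the window is that of a RefSeq start inside the gene, whose 5′ end lies at 170110762 on the minus strand. Each sequence runs 5′ to 3′ on the strand of the gene, over 300 bases around the RefSeq start (GRCm38.p6), most of them upstream of it, and covers chr9:65264930-65265229 (plus strand) for Cilp, chr1:170088895-170089194 (minus strand) for Ddr2 and chr5:75152001-75152300 (plus strand) for Pdgfra.
Cilp: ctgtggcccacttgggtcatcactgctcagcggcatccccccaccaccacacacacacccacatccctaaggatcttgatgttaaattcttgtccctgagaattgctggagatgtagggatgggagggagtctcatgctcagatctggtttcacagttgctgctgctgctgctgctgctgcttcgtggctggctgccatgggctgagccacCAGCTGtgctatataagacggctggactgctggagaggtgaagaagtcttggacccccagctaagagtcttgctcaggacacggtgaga
Ddr2: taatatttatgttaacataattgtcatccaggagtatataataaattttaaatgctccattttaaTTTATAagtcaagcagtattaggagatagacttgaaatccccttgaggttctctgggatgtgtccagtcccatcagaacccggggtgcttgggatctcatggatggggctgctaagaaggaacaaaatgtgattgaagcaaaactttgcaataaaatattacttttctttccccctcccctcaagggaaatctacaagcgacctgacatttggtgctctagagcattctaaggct
Pdgfra: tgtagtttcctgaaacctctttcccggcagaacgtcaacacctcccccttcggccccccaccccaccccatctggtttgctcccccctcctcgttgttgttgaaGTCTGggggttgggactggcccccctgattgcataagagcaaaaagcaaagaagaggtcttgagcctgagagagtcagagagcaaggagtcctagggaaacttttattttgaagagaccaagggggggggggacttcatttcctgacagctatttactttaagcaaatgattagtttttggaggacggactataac
Capitals mark exact matches on either strand. The letters searched were CAGCTG for a form of the E-box, to which helix-loop-helix factors such as Tcf21 bind. For the SMAD box, read in signalling by transforming growth factor beta, they were CAGAC. The AP-1 site, bound by Fos and Jun proteins, was TGANTCA. For TEAD factors the search used GGAATG, and for homeobox factors such as Meox1 it used TAATTA. The TATA box, near which transcription can start, was TATAAA. Cilp has 1 E-box of the capitalised form, 39 bases before the start, and Pdgfra has 1 reversed SMAD box, 146 bases before the start. Ddr2 has 1 reversed TATA box, 185 bases before its internal start. The general E-box CANNTG, which includes the form above and is not capitalised, occurs 3 times in Cilp, 1 time in Ddr2 and 2 times in Pdgfra. Of all 32851 mouse windows of 300 bases, 72.3% hold the general E-box, 16.3% its capitalised form, 49.6% the SMAD box, 7.8% the AP-1 site, 14.7% the TEAD site, 5.3% the homeobox site and 13.6% the TATA box. None of the 6 capitalised motifs was shared by the 3 windows.

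Further genes of resting fibroblasts were mostly lower in TG. Of 14 tested, 11 had a negative and 3 a positive log2 fold change, with a median of -0.47 beside -0.0081 for all genes. Their summed level did not overlap, unlike that of the 5 resting members, with 957, 1309.8 and 1157 RPKM in NTG and 700.3, 884 and 784 RPKM in TG. In this list and the next ones, every named gene that DESeq2 called had an edgeR adjusted p of 0.196. These lists were chosen with earlier results of these data known, so their counts beside the shares of all genes are a description, not a test. At an unadjusted p below 0.05 (edgeR) 7 were lower and 1 higher, against 9.76% and 8.83% of all genes. DESeq2 called 6 lower and 1 higher, against 2.4% and 1.54%. The 3 with the smallest p were Pi16, a marker of adventitial fibroblasts (-1.05 ± 0.253 SE), Serpinf1, which encodes the secreted factor PEDF (-1.33 ± 0.314 SE), and Fbln1, a matrix protein of elastic fibres (-0.89 ± 0.220 SE). Mean levels in NTG and TG were 403 and 195 CPM for Pi16, 244 and 97.4 CPM for Serpinf1 and 192 and 104 CPM for Fbln1, with no overlap between groups and DESeq2 adjusted p-values of 0.00338, 0.00113 and 0.00751. Scara5, a scavenger receptor for ferritin named here because it was the only one called higher, was at 13.6 CPM in NTG and 24.9 CPM in TG (log2 fold change 0.87 ± 0.237 SE, DESeq2 adjusted p = 0.0273). In the absence of the library labelled NTG 1, edgeR called 4 of the 14 lower, against 2.85% of all genes: Pi16, Serpinf1, Fbln2 and Pcolce (adjusted p-values 0.0484, 0.0475, 0.0484 and 0.0320).

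Further genes of activated fibroblasts spread more widely. Of 16 tested, 14 had a negative log2 fold change and the median was -1.93. By edgeR's unadjusted p below 0.05, 13 were lower and 2 higher, against 9.76% and 8.83% of all genes. DESeq2 called 11 lower and 1 higher, against 2.4% and 1.54%. Lox, an enzyme that crosslinks collagen, was at 114, 614 and 177 CPM in NTG and 27.2, 41.4 and 14.1 CPM in TG (log2 fold change -3.45 ± 0.739 SE, DESeq2 adjusted p = 0.00542). Sfrp2, a secreted modulator of Wnt signalling, was at 35.9, 66.6 and 27.0 CPM in NTG and 9.81, 13.4 and 8.46 CPM in TG (-2.03 ± 0.362 SE, DESeq2 adjusted p = 1.39e-06). For both, as for Cthrc1, NTG 2 was the highest heart and the groups did not overlap. The 2 genes with a positive value were Acta2 and Cnn1. Acta2, smooth muscle alpha-actin, was at 88.5, 83.5 and 88.6 CPM in NTG and 120.0, 114 and 115 CPM in TG, a log2 fold change of 0.42 ± 0.0831 (SE) that was too small to be called (DESeq2 adjusted p = 0.00416). Cnn1, calponin of smooth muscle, was called higher by DESeq2 (0.75 ± 0.202 SE, adjusted p = 0.0446). Myh11, the smooth muscle myosin heavy chain, was also higher (0.70 ± 0.170 SE, DESeq2 adjusted p = 0.0168), and both it and Cnn1 were chosen for mention after their values were seen. Myh11 belongs to a list of 6 pericyte and smooth muscle markers, of which 3 were lower and 3 higher, with a median of 0.0082. DESeq2 called no other gene of that list. Tagln, transgelin of smooth muscle, had a negative value (-0.61 ± 0.547 SE, edgeR adjusted p = 0.564) with groups that overlapped. NTG 2 was the highest heart for 13 of the 16 genes. Without the library labelled NTG 1, edgeR called 1 of the 16 lower, against 2.85% of all genes, Aebp1 (log2 fold change -1.23, adjusted p = 0.0434).

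**Figure D4:**
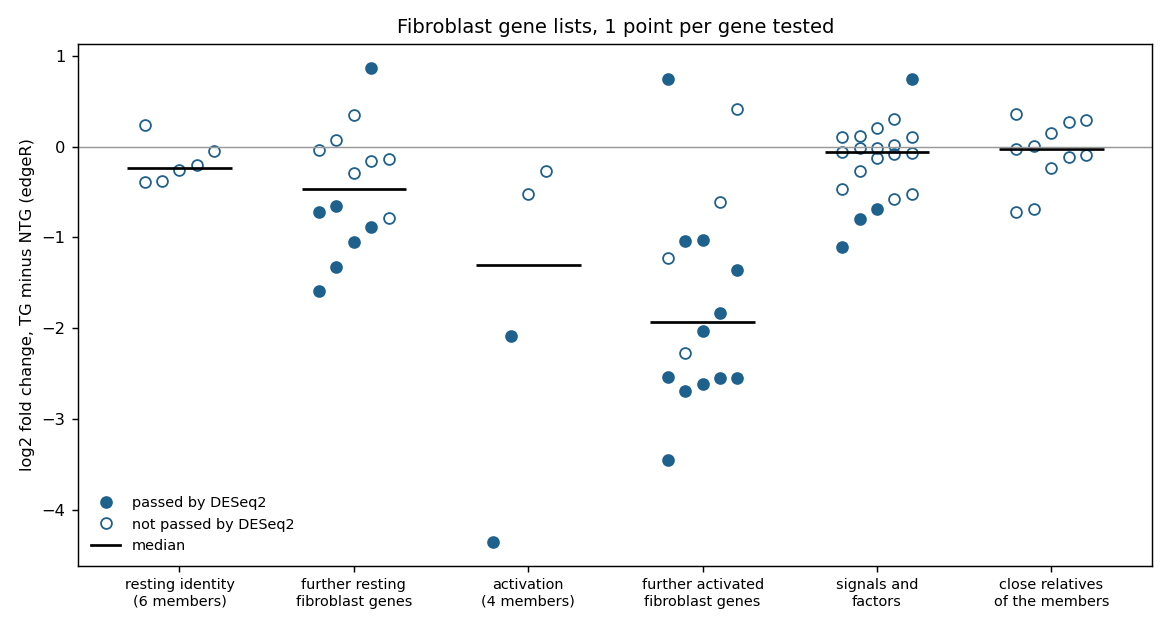
Log2 fold change of TG over NTG (edgeR) for the members and for 4 further lists, 1 point per gene tested, with a line at each list's median. Filled points were called by DESeq2 (adjusted p and fold), and medians run from -1.93 for the further activated fibroblast genes to -0.0212 for the close relatives of the members.

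Signals and factors that act on fibroblasts had a median of -0.063 over 20 genes, 13 of them lower and 7 higher. DESeq2 called 3 lower and 1 higher, against 2.4% and 1.54% of all genes. At an unadjusted p below 0.05 (edgeR) 6 were lower and 2 higher, against 9.76% and 8.83%. The 3 with the smallest p belonged to the transforming growth factor beta pathway. The receptor Tgfbr1 had a log2 fold change of -0.80 ± 0.187 (SE, DESeq2 adjusted p = 0.00920), the ligand Tgfb2 one of -1.11 ± 0.270 (SE, DESeq2 adjusted p = 0.00445) and the ligand Tgfb3 one of -0.68 ± 0.178 (SE, DESeq2 adjusted p = 0.0280). All 3 had no overlap between groups, while the ligand Tgfb1 stood at -0.02 ± 0.149 (SE, DESeq2 adjusted p = 0.981). Pdgfb, a ligand of the platelet-derived growth factor receptors, was called higher by DESeq2 (0.75 ± 0.210 SE, adjusted p = 0.0275) and was the only one. Without the library labelled NTG 1, edgeR called 1 of the 20 lower, against 2.85% of all genes, and 0 higher, against 2.67%. The 1 called lower was Tgfbr1 (log2 fold change -0.91, edgeR adjusted p = 0.0456). Close relatives of the members gave 6 lower and 5 higher of 11 tested, with a median of -0.02, 1 lower at an unadjusted p below 0.05 (edgeR, against 9.76% of all genes) and 0 calls by DESeq2. That 1 was Capg, an actin-capping protein related to gelsolin (-0.69 ± 0.275 SE, DESeq2 adjusted p = 0.128). The next by p were Dpp4, a protease related to Fap (0.36 ± 0.236 SE, edgeR adjusted p = 0.422), and Pdgfrb, the second receptor beside Pdgfra (-0.23 ± 0.158 SE, edgeR adjusted p = 0.441).

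Markers of other cells moved with the groups in some lists, and their part in the fibroblast results was not tested. All 8 cardiomyocyte markers had a positive log2 fold change, with summed levels of 4989 to 8292 RPKM in NTG and 8162 to 10256 RPKM in TG, and NTG 2 was the lowest heart. All 8 macrophage markers had a negative one, with 684 to 1202 RPKM in NTG and 482 to 709.8 RPKM in TG, and all 5 red blood cell markers too, with 1681 to 2869 RPKM in NTG and 981 to 1169 RPKM in TG. DESeq2 called 4 of the 5 red blood cell markers and 1 of the 8 macrophage markers (Cd14) lower, against 2.4% of all genes. Without the library labelled NTG 1, edgeR called all 5 red blood cell markers, 2 macrophage markers (Csf1r and Mrc1) and 1 endothelial marker (Vwf) lower, against 2.85% of all genes, and 1 cardiomyocyte marker (Pln) and 1 Schwann cell marker (Sox10) higher, against 2.67%. Endothelial markers (291 to 329 RPKM in NTG and 293 to 322 RPKM in TG) and pericyte and smooth muscle markers (265 to 342 RPKM in NTG and 289.6 to 351 RPKM in TG) overlapped. Of 4 Schwann cell markers 3 were tested and all were positive, with 1.96 to 2.55 RPKM in NTG and 3.05 to 3.43 RPKM in TG. DESeq2 called 1 of them (Sox10) higher, against 1.54% of all genes. Sox10 was scarce, with 9, 9 and 10 counts in NTG and 34, 41 and 29 in TG. Lymphocyte markers (3 of 6 tested) summed to at most 2.34 RPKM, mesothelial markers (1 of 5 tested) to at most 6.92 RPKM, and adipocyte markers (0 of 4 tested) to at most 1.29 RPKM, with Lep at 0 in every library. Of the 4 atrial markers, Myl7 had 19.5, 0.159 and 0 CPM in NTG and 1.59, 7.67 and 64.4 CPM in TG, and Myl4 and Sln were likewise highest in TG 3 and the library labelled NTG 1. The fourth, Nppa, which ventricular muscle also makes under load, had 754, 1394 and 1401 CPM in NTG and 172, 867 and 268 CPM in TG (log2 fold change -1.44 ± 0.614 SE, edgeR adjusted p = 0.275). Transcripts of the mitochondrial genome accounted for 13.4% to 19.2% of each NTG library, least in NTG 2, and for 16.0% to 21.5% of each TG library.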

How the data were processed

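RNA of 6 left ventricles was selected with poly-T beads and sequenced (Illumina Novaseq), and the authors then filtered the reads in-house, mapped them (HISAT2 per the submitters' notes), ran StringTie and obtained gene counts from featureCounts. The deposited values are raw counts per gene, not normalized. The notes list GRCh38 as build, but the table holds mouse genes, and of 54409 genes found in GENCODE M21 (GRCm38) 98.3% had identical coordinates, all 10 members included. Whether counting used strand is not given in the sources used here, so that reads of overlapping genes cannot be told apart.

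Counts were filtered by filterByExpr, scaled by TMM and tested with edgeR's quasi-likelihood test (edgeR 4.0.16, R 4.3.3), TG against NTG, without covariates, since the labels give no batch. SE is the log2 fold change divided by the square root of F. RPKM uses the gene lengths of the deposited table. DESeq2 1.42.0, limma 3.58.1 (voom), other scalings and filters, a replicate block and leaving out each library served as alternatives (25 planned, and 1, leaving out the mitochondrial genome, chosen after seeing the data). No 2 libraries agreed within sampling noise (chi-square per gene at least 15.5).

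The members and all lists (further resting and activated fibroblast genes, signals and factors, close relatives, and markers of other cells) were chosen with earlier results of these data known. Named genes were the members, Hint2, the 3 genes with the smallest unadjusted p of each further fibroblast list, the 5 genes most like each profile, and markers beside a result. Scara5, Fbln2, Pcolce, Cnn1, Tagln, Aebp1, Tgfb1 and Pdgfb fall outside this rule and were chosen after their values were seen. Lists are described by counts and medians with no set test. Promoters were taken from a RefSeq table, which held 6 of the 10 members.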

Additional observations from a re-analysis of the deposited data

How the results depend on the processing

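All 10 members kept the sign of their log2 fold change under the 25 alternatives chosen at the outset and the 1 added, except Tcf21, which ranged from -0.18 to 0.16 when single libraries were left out (edgeR) and was above 0 without NTG 2 and without TG 1, at 0.16 and 0.025 by edgeR and 0.17 and 0.031 by DESeq2. What moved was the number of calls. With edgeR's quasi-likelihood test, RLE, upper quartile or library size scaling, non-robust dispersion, limma-voom, calling on adjusted p alone and leaving out the mitochondrial genome gave 0 calls among all genes, with 2738 to 2785 genes at an unadjusted p below 0.05. Testing every gene with a count gave 116 higher and 116 lower, 0 of them members. A minimum of 10 counts in every library removed Cthrc1, so that the activation median became -0.52 over the 3 genes left. DESeq2 called 228 genes higher and 355 lower, 2 of them members. Without its filter it called 219 and 348, and edgeR's likelihood-ratio test called 206 and 339, again with Cthrc1 and Cilp as the 2 members. Leaving out single libraries, edgeR called 0 to 404 genes higher and 0 to 432 lower, with 0 members, and both maxima came without the library labelled NTG 1. DESeq2 called 896 higher and 877 lower without the library labelled NTG 1 (3 members: Pdgfra, Cthrc1, Cilp), 47 and 76 without NTG 2 (0 members), 40 and 129 without NTG 3 (1, Cthrc1), 103 and 76 without TG 1 (0), 292 and 486 without TG 2 (3: Cthrc1, Meox1, Cilp) and 29 and 67 without TG 3 (2: Cthrc1, Cilp). Library size scaling moved the median of all genes to -0.09. The cause of these changes was not tested.

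Replicate numbers are shared by the groups, but same-numbered libraries did not deviate together (correlations 0.08, 0.17 and -0.25), and not every library correlated best with its own number. With the number as a replicate block, edgeR called 84 genes higher and 147 lower, 1 of them a member (Cthrc1), and DESeq2 354 and 458, 3 of them members (Cthrc1, Meox1, Cilp).

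With 3 hearts a group, single libraries limit the values. NTG 2, the highest heart for 8 of 10 members, moved Cthrc1 most when left out (-4.36 to -3.32, against -3.81 without TG 3, which had 2 counts), and the library labelled NTG 1 had 12 counts of Hint2.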
